A study of Mus musculus with 6 samples.

Results

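The Id proteins and the feedback genes of bone morphogenetic protein (BMP) signalling were followed in cultured bone progenitors that carry a deletion of Ift140. The set held 10 genes: Id1, Id2, Id3, Id4, Smad6, Smad7, Smad9, Nog, Grem1 and Bambi. They were chosen by name, all 10 had a row among the 23622 genes of the deposited table, and all 10 passed the filter of a mean of at least 0.5 FPKM. FPKM is the number of reads of a gene per kilobase of its length and relative to the total of its library. The 3 cKO libraries, labelled Ift140-/- and numbered 2, 3 and 4, were set against 3 wild type control libraries with the same numbers. All 6 came from C57BL/6 mice aged 2 weeks, from marrow progenitors grown to culture generation 3 and otherwise untreated. Which promoter drives the deletion, and which mice gave each culture, was not given in these sources.

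BMP ligands bind pairs of serine/threonine kinase receptors, which phosphorylate Smad1, Smad5 and Smad9, and these enter the nucleus with Smad4. In many cell types the Id genes are among the early genes they switch on. Id proteins have a helix-loop-helix but no DNA-binding domain, so they hold E proteins and other partners away from DNA. In bone the pathway drives progenitors towards the osteoblast. It is held in check by genes that it induces itself: Smad6 and Smad7 inside the cell, the pseudoreceptor Bambi at the membrane, and noggin (Nog) and gremlin 1 (Grem1) outside the cell.

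Smad7 and Bambi were left out of the promoter search, and Id1 and Nog had no window. For the other 6 members sequence was taken from RefSeq on GRCm38.p6, as windows of 250 bases before and 50 bases after the annotated start. They were searched for 2 palindromes known to be bound by Smads, GGCGCC and GTCTAGAC, each of which reads the same on both strands and neither of which overlaps the other. GGCGCC was found in 4 of the 6 windows (Id2, Id4, Smad9 and Grem1), against 11.9% of all 32851 mouse windows. The windows of these 6 members were 60.0% to 73.7% G and C, against a median of 52.7% over all windows. The other motif, GTCTAGAC, was found in the Smad6 window and in 0.213% of all windows. The 250 bases before the Id4 start are shown whole because Id4 had the smallest p of the set. They lie on the plus strand at chr13:48260866-48261115, upstream of every Id4 exon and outside exons of any GENCODE gene, within the spans of the antisense transcripts A330033J07Rik and Gm49291. The other members with a match are shown for 30 bases around it, in the direction of the gene, with the motif in capitals throughout. The Id2 stretch (chr12:25096306-25096335, minus strand) is intronic to a longer GENCODE transcript of Id2, and the Smad6 stretch (chr9:64022045-64022074, minus strand) reaches into Smad6 exon sequence. The Smad9 stretch (chr3:54755519-54755548, plus strand) and the Grem1 stretch (chr2:113758709-113758738, minus strand) lie before the gene, in no annotated gene. 
Id4: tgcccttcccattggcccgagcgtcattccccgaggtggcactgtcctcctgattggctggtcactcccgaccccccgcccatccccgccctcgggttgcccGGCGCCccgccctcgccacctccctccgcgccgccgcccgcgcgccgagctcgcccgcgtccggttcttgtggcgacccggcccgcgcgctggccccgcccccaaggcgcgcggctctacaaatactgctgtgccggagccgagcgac
Id2: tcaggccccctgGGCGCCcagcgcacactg
Smad6: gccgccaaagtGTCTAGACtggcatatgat
Smad9: gcacggccgcctGGCGCCcttccagcgcgg
Grem1: cgcggcggcgacGGCGCCtgaccaatggag
Counted from the annotated start, the motif begins at -148 in Id4, at -231 in Id2, at -51 in Smad9, at -78 in Grem1 and at -4 in Smad6. These are matches of letters only, and binding was not measured here.

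In cKO cultures Id4, Smad6 and Smad7 were higher than in controls, and no member passed the test as lower. Id4 was 3.03-fold higher on mean FPKM, Smad6 1.73-fold and Smad7 1.36-fold, while Id1, Id2 and Id3 differed by at most 1.06-fold. In bulk RNA, more cells of a type and more RNA per cell cannot be told apart. Thus 3 of the 10 members passed limma's moderated test (adjusted p under 0.05 over the 13326 tested genes), all in the direction of cKO, where 5.04% of tested genes were called higher and 2.57% lower. The values of the cKO and control libraries did not overlap for 5 members, the 3 called genes with Nog above and Smad9 below the controls, against 35.7% of all tested genes with no overlap. The median log2 fold change was 0.09 over the 10 members and -0.0011 over all tested genes. Leaving out 1 library at a time gave between 1 member called higher (without control 4) and 4 (without control 3).

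**Figure D1:**
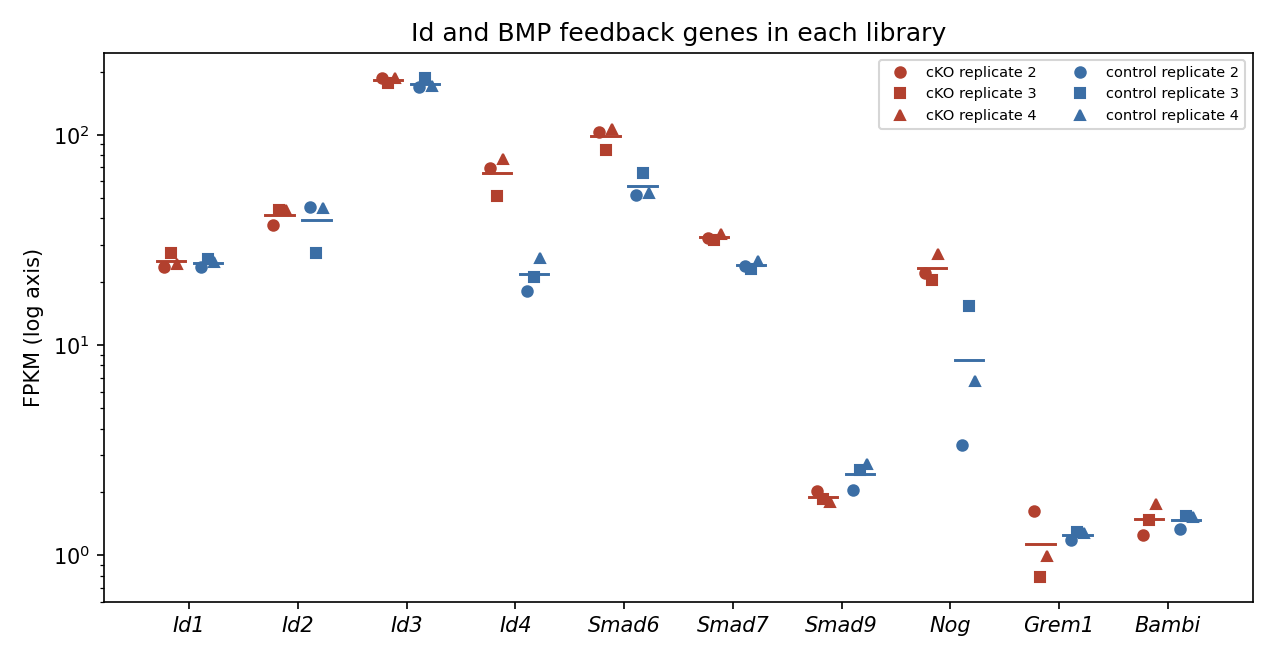
FPKM of each of the 10 members in every library, cKO left and control right, on a log axis, with a marker shape for each replicate number and a line at each group mean (n = 3 each). The cKO points of Id4, Smad6, Smad7 and Nog all lie above those of the controls, and those of Smad9 all lie below.

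Several properties of the libraries stand beside these results. Library totals behind the FPKM ran between 17180101 and 28283414 reads, a ratio of 1.646, and the deepest was cKO 4. Ift140 averaged 1.79 ± 0.0951 FPKM in cKO and 2.97 ± 0.194 FPKM in controls (SD, n = 3 each, limma adjusted p = 0.0138), so transcript from the locus remained in the cKO cultures. Xist, made from the inactive X chromosome, averaged 38.2 FPKM in cKO and 0.0732 FPKM in controls, and the Y-linked genes Eif2s3y, Kdm5d and Uty had 0 reads in the cKO libraries. Sex and genotype therefore cannot be told apart for any member. The second principal component placed control 3 at 20.4, far from control 2 (-15.4) and control 4 (-11.4), and Nog and Id2 are given with and without it.

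Id4 has been described as acting in part against the other Id proteins, and in mouse bone it is known to favour osteoblast over fat cell formation. Its gene lies on chromosome 13 from 48261228 to 48266026, plus strand (GRCm38, GENCODE vM21). Id4 had 69.8, 51.04 and 76.5 FPKM in cKO 2, 3 and 4, against 18.1, 21.0 and 26.0 FPKM in controls 2, 3 and 4. The groups were widely separated, with the lowest cKO library far above the highest control library. On the log2(FPKM + 1) scale Id4 was 1.55 higher in cKO (SE 0.18, 95% interval 1.12 to 1.98), with a limma adjusted p of 0.00997. Over 19 alternative fits the adjusted p ran between 0.00227 and 0.0559, and Id4 passed in 18 of them. It rested on between 3058 and 7188 reads per library in cKO and between 1214 and 1796 in controls, so counting error was small.

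Exons of Id4 share 82 bases, 2.13% of the Id4 exon sequence, with the antisense transcript A330033J07Rik, and 171 bases with Gm49291, which has no value here. Whether strand was used in counting is not stated in the sources used here, so reads of the shared bases cannot be told apart. A330033J07Rik averaged 1.55 ± 0.314 FPKM in cKO and 0.381 ± 0.200 FPKM in controls (SD, n = 3 each), a log2 difference of 0.89 with a limma adjusted p of 0.0207. That call was lost without cKO 2 (0.0632), without cKO 3 (0.0548), without cKO 4 (0.0594), without control 4 (0.0648), with the replicate block (0.0509) and with the block and GC correction (0.0652). The antisense values rested on 116, 101 and 237 reads in cKO, against 40, 15 and 50 reads in controls. Reads counted to A330033J07Rik do not measure antisense reads counted to Id4, and Gm49291 has no value. The part of antisense reads in the Id4 values was not tested.

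Id1, Id2 and Id3, the classical early targets of BMP receptors, overlapped between the groups. Id1 (chromosome 2, 152736251 to 152737410, plus strand) had 23.6, 27.3 and 24.2 FPKM in cKO and 23.6, 25.6 and 24.7 FPKM in controls. Id3 (chromosome 4, 136143497 to 136145755, plus strand), the most abundant of the set, averaged 183 ± 5.29 FPKM in cKO and 175 ± 9.39 FPKM in controls (SD, n = 3 each). These genes were expressed well: Id3 exceeded 98.3% of tested genes in mean FPKM, Id2 90.5% and Id1 83.4%. The log2 difference was 0.02 for Id1 (95% interval -0.15 to 0.19, limma adjusted p = 0.884) and 0.07 for Id3 (-0.09 to 0.22, limma adjusted p = 0.543). Correcting the libraries for trends with GC content turned the sign of both, to -0.07 for Id1 and -0.05 for Id3, and neither passed in any of the 19 alternatives.

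Id2 (chromosome 12, 25093799 to 25097140, minus strand) had 37.4, 44.1 and 43.9 FPKM in cKO, against 45.5, 27.5 and 44.7 FPKM in controls. Control 3 was the low library, and controls 2 and 4 lay above every cKO library. The log2 difference was 0.12 with a wide interval (-0.34 to 0.58, limma adjusted p = 0.725), and without control 3 it was -0.11. Differences up to 1.496-fold lie within its interval.

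The makeup of the Id transcripts differed between the groups. Id4 made up 22.0%, 17.05% and 23.2% of the summed FPKM of the 4 Id genes in cKO, against 7.07%, 8.06% and 9.81% in controls. Every cKO share exceeded every control share (exact 2-sided permutation p = 0.1, the smallest that 3 against 3 libraries can give). The share of Id3 was 58.0 ± 1.58% in cKO and 67.2 ± 3.87% in controls (SD, n = 3 each). The summed FPKM of Id1, Id2 and Id3 was 249.9 ± 3.59 in cKO and 239 ± 0.590 in controls (SD, n = 3 each), and that of all 4 was 316 ± 15.6 in cKO and 261 ± 4.58 in controls. Neither sum overlapped between the groups (exact 2-sided permutation p = 0.1 for each). Most of the difference in the sum of all 4 thus lay in Id4.

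**Figure D2:**
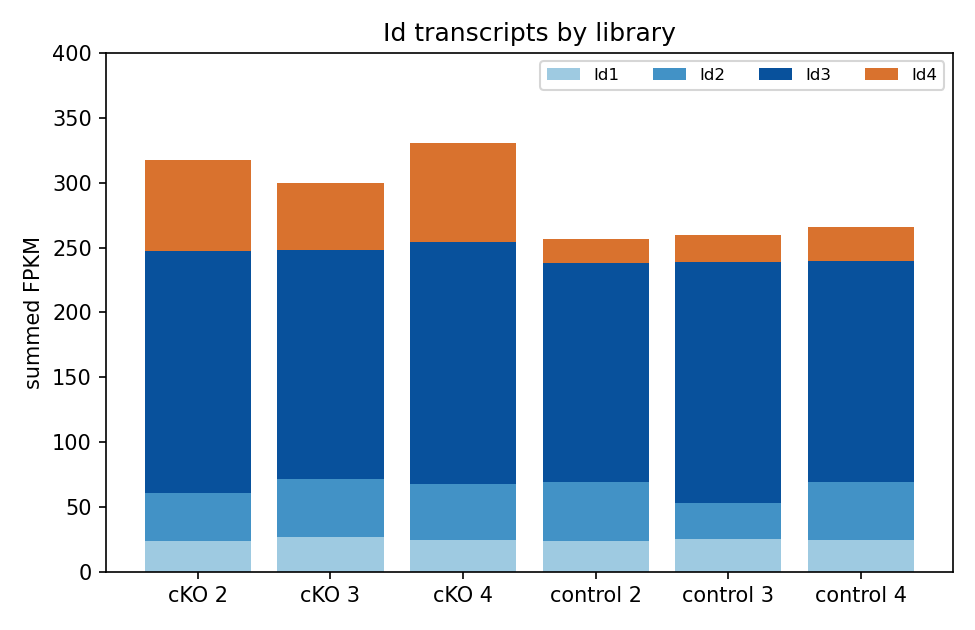
Stacked bars of the FPKM of Id1, Id2, Id3 and Id4 in each library, cKO left and control right, on a linear axis from 0. The Id4 part covers 17.05% to 23.2% of the bar in cKO and 7.07% to 9.81% in controls. Id1 to Id3 together make 247 to 254 FPKM in cKO and 238 to 239 FPKM in controls.

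Inside the cell, Smad6 and Smad7 act as inhibitory Smads. Smad6 mainly blocks BMP receptors and competes with Smad4 for Smad1, and Smad7 blocks BMP and TGF-beta receptors alike and brings ubiquitin ligases to them. Smad6 (chromosome 9, 63953076 to 64022059, minus strand) had 103, 85.0 and 106 FPKM in cKO, against 51.7, 66.0 and 53.1 FPKM in controls. The groups were clearly separated, and the closest libraries were cKO 3 and control 3. The log2 difference was 0.78 (SE 0.12, 95% interval 0.48 to 1.07), with a limma adjusted p of 0.0197. Smad6 passed in 13 of 19 alternatives, with adjusted p between 0.00408 and 0.188, and 3 of the losses came with a library left out (0.0641 without cKO 2, 0.0586 without cKO 4 and 0.0888 without control 4). Correction for GC content lowered its log2 difference to 0.51 and its call was lost (limma adjusted p = 0.0826). The Smad6 exons are 60.8% G and C, the highest of the 10 members, against a median of 49.8% over tested genes.

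Smad7 (chromosome 18, 75367529 to 75395935, plus strand) had 32.3, 31.6 and 33.8 FPKM in cKO, against 23.9, 22.9 and 25.0 FPKM in controls. It had the tightest replicates of the called members, with an SD of 1.15 in cKO and 1.03 in controls. The log2 difference was 0.43 (SE 0.06, 95% interval 0.29 to 0.57), with a limma adjusted p of 0.0132. Smad7 passed in 15 of 19 alternatives, with adjusted p between 0.00467 and 0.107, and missed the threshold without cKO 3 (0.0528) and without control 4 (0.0599). GC correction lowered its log2 difference to 0.28, and the call was kept (limma adjusted p = 0.0341).

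The level of the inhibitory Smads was high against that of the receptor Smads of the BMP branch. Smad6 and Smad7 summed to 8.62, 7.93 and 9.15 times the FPKM of Smad1, Smad5 and Smad9 in cKO, against 4.53, 5.32 and 4.16 times in controls (exact 2-sided permutation p = 0.1, the smallest possible here). The ratio of Smad6 to Smad7 was 3.01 ± 0.277 in cKO and 2.39 ± 0.425 in controls (SD, n = 3 each), and its libraries overlapped.

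Smad9, also known as Smad8, is a receptor Smad that is induced by BMP and known to transmit the signal less strongly than Smad1 and Smad5. It lies on chromosome 3 from 54755582 to 54801257, plus strand. Smad9 had 2.03, 1.85 and 1.79 FPKM in cKO, against 2.04, 2.54 and 2.71 FPKM in controls. The groups did not overlap, but cKO 2 and control 2 differed by only 0.01 FPKM. The log2 difference was -0.24 (95% interval -0.47 to -0.02), which missed the threshold (limma adjusted p = 0.147) and passed only with estimated library weights, at 0.0411. Of the other receptor and common Smads, 0 of 5 passed limma's test on FPKM or voom on recovered reads, and 1 had an unadjusted p under 0.05. That gene was Smad5, at 6.54 ± 0.210 FPKM in cKO and 7.35 ± 0.385 FPKM in controls, and Smad1 had 6.83 ± 0.325 FPKM in cKO and 7.59 ± 0.795 FPKM in controls (SD, n = 3 each).

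Noggin binds BMP2, BMP4 and BMP7 outside the cell and keeps them from their receptors. Nog is a gene of 1 exon on chromosome 11, 89300638 to 89302332, minus strand. Nog had 21.9, 20.4 and 27.1 FPKM in cKO, against 3.34, 15.3 and 6.73 FPKM in controls. Every cKO library exceeded every control library, but the controls spread widely, with a coefficient of variation of 73.0% and control 3 at the top. The log2 difference was 1.55 with a large error (SE 0.44, 95% interval 0.51 to 2.60), and it missed the threshold (limma adjusted p = 0.0782). Nog passed in 3 of 19 alternatives: with library weights (0.0112), with voom on recovered reads (0.0330) and without control 3 (0.0129, log2 difference 2.05).

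Grem1 and Bambi were near the low end of the tested range and did not pass in any of the 19 alternatives. Grem1, a secreted antagonist of BMP2 and BMP4 on chromosome 2 (113746164 to 113758646, minus strand), had 1.63, 0.788 and 0.989 FPKM in cKO, against 1.18, 1.30 and 1.28 FPKM in controls. The cKO libraries lay on either side of the controls, and the log2 difference was -0.10 (95% interval -0.44 to 0.25, limma adjusted p = 0.704). Bambi, a receptor-like protein without a kinase domain, lies on chromosome 18 from 3507923 to 3516404, plus strand. It averaged 1.49 ± 0.257 FPKM in cKO and 1.46 ± 0.117 FPKM in controls (SD, n = 3 each), and the log2 difference was 0.01 (95% interval -0.22 to 0.25, limma adjusted p = 0.945). Because 1 was added before the logarithm, changes of genes at this level are understated on the log2 scale.

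**Figure D3:**
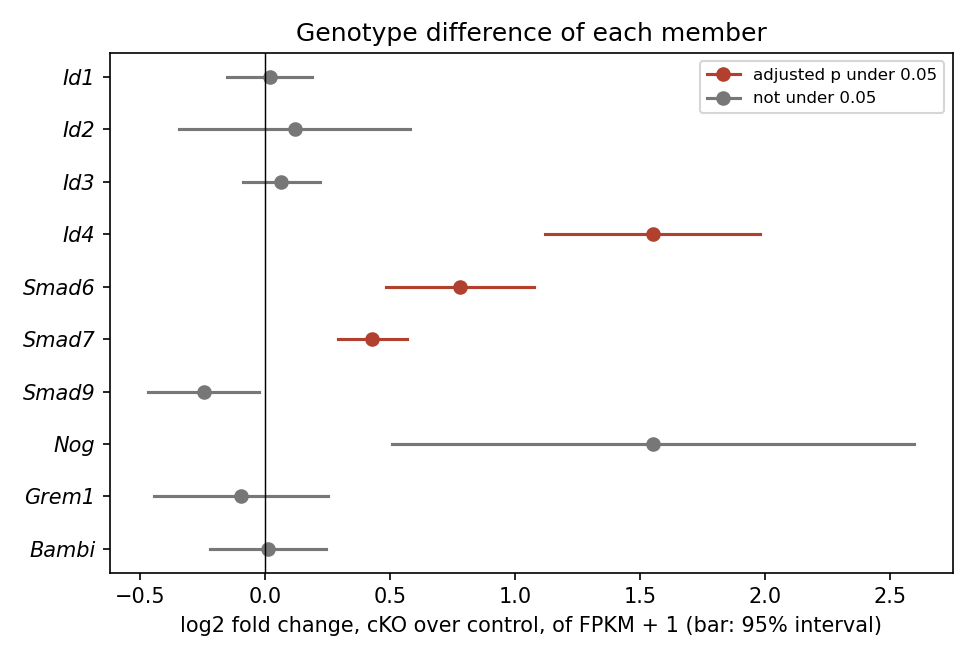
Log2 fold change of each member, cKO over control, on log2(FPKM + 1), with 95% intervals from limma and colour for an adjusted p under 0.05. Id4, Smad6 and Smad7 are called, and Nog has a log2 difference of 1.55 like Id4 with the widest interval of the set.

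The calls were set beside the ways of fitting the data. Id4 kept an adjusted p under 0.05 except when GC correction and replicate block were used together, and Smad6 and Smad7 were also lost with the replicate block alone (0.0806 for Smad6 and 0.0592 for Smad7).

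**Figure D4:**
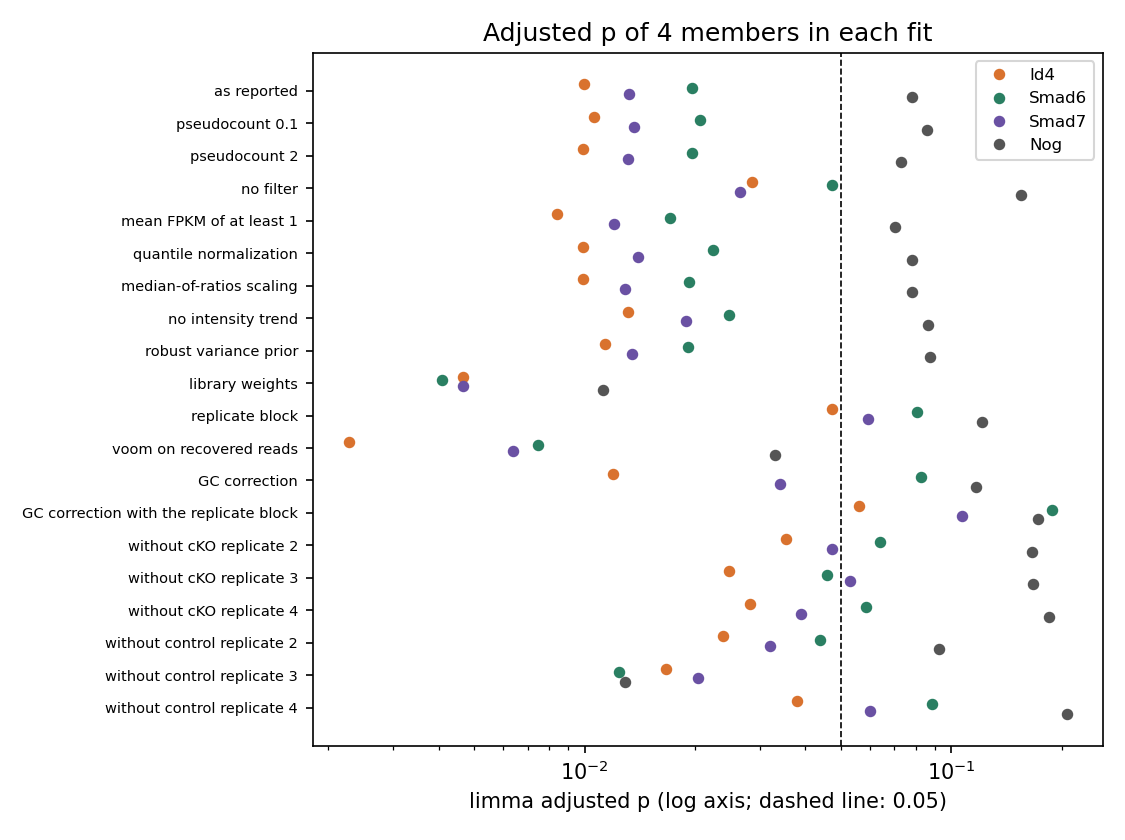
Limma adjusted p of Id4, Smad6, Smad7 and Nog in the reported fit and in 19 alternatives, on a log axis with a dashed line at 0.05 and points of 1 fit set at slightly different heights. Id4 stays left of the line in all but 1 alternative, with a highest value of 0.0559, and Nog lies left of it in 3.

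The pathway around the members was read from lists of 119 other genes, of which 110 had a row and 93 could be tested, 17 being under the filter. Of these 93, 11 were higher in cKO, 8 were lower and 74 did not pass, with a median log2 fold change of -0.03 against -0.0011 over all tested genes. The libraries of the groups did not overlap for 42 of the 93. Over all tested genes 5.04% were called higher, 2.57% were called lower and 35.7% did not overlap. Without control 4 none of the 93 passed, so each call among these pathway genes carries that limit. Leaving out cKO 3 gave 7 higher and 0 lower, and the replicate block gave 2 higher and 0 lower. Among the called genes named below, Tcf3 lost its call whichever library was left out. Acvr2a, Usp15, Hand2 and Tnfrsf11b kept theirs only without control 3, Heyl only without cKO 2 and Bmper only without cKO 4. With GC correction 8 were higher and 6 lower. Adjusted p values there are from limma, and spreads are SDs over 3 libraries per group.

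Among BMP and GDF ligands, 2 of 8 tested were higher and 0 lower, with a median log2 fold change of 0.47. Bmp6, an osteogenic ligand, averaged 4.39 ± 0.404 FPKM in cKO and 1.99 ± 0.414 FPKM in controls (adjusted p = 0.0139). Gdf10, also called BMP3B, averaged 3.89 ± 1.35 FPKM in cKO and 0.577 ± 0.431 FPKM in controls (adjusted p = 0.0184). Bmp2 and Bmp4, main ligands of bone, did not pass and were picked after their values were seen because Nog binds them. Bmp2 had 13.02, 8.42 and 15.1 FPKM in cKO, against 1.37, 6.06 and 2.88 FPKM in controls (adjusted p = 0.0525). With 1 library left out, its limma adjusted p ran between 0.0167 (without control 3) and 0.161 (without control 4). Bmp2 had the same order of libraries as Nog in controls, with control 3 highest and control 2 lowest. The ratio of Nog to Bmp2 was 1.97 ± 0.398 in cKO and 2.43 ± 0.0984 in controls. Bmp4 averaged 155 ± 15.1 FPKM in cKO and 109.9 ± 18.8 FPKM in controls (adjusted p = 0.0691).

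Of the secreted antagonists apart from Nog and Grem1, 0 of 11 were higher and 2 were lower. Among the lower genes, Bmper, which binds BMPs and can inhibit or aid them, averaged 1.57 ± 0.249 FPKM in cKO and 2.47 ± 0.148 FPKM in controls (adjusted p = 0.0381). Of the receptors and co-receptors apart from Bambi, 2 of 12 were higher and 1 was lower. The co-receptor Rgmb averaged 12.9 ± 0.859 FPKM in cKO and 8.26 ± 0.457 FPKM in controls (adjusted p = 0.0107). Tgfbr3, or betaglycan, averaged 10.6 ± 1.54 FPKM in cKO and 5.66 ± 0.774 FPKM in controls (adjusted p = 0.0184). The type II receptor Acvr2a averaged 2.68 ± 0.158 FPKM in cKO and 3.94 ± 0.368 FPKM in controls (adjusted p = 0.0287, and 0.0593 with GC correction).

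**Figure D5:**
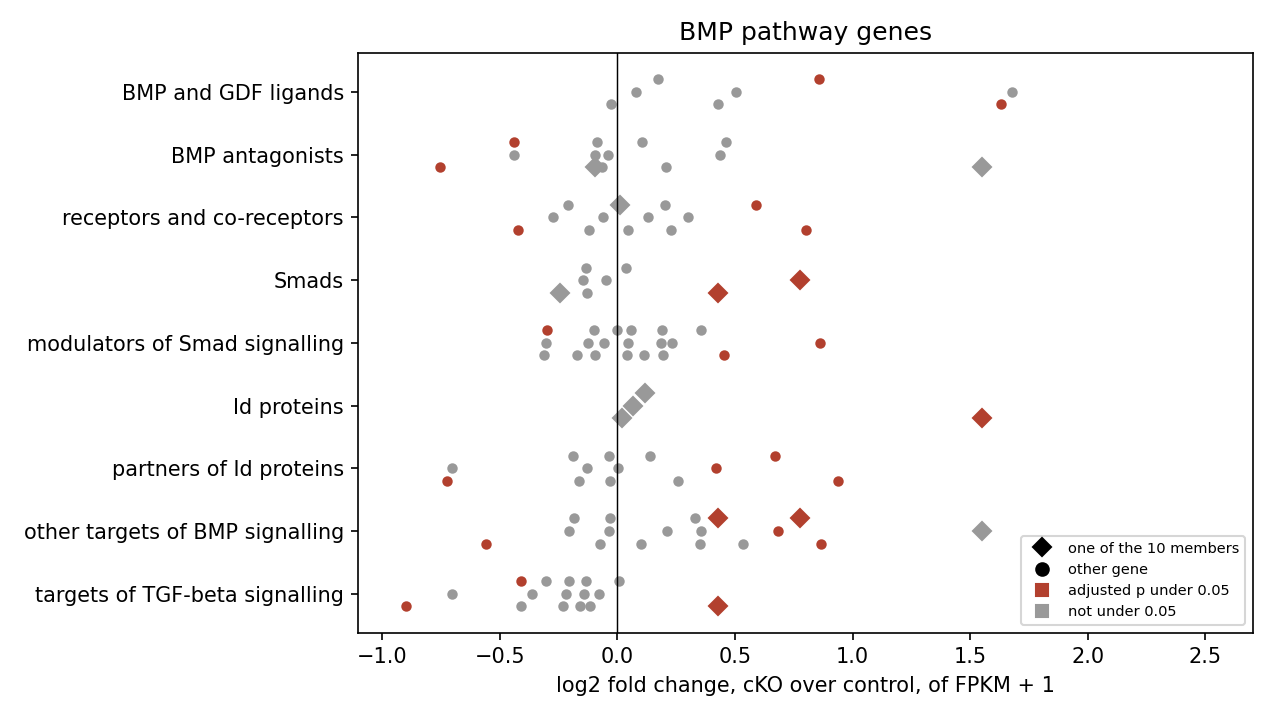
Log2 fold change, cKO over control, of the tested genes of each BMP pathway list, with diamonds for the 10 members, circles for other genes and colour for an adjusted p under 0.05. Nog and Bmp2 lie far to the right without passing, and the calls among other genes stand on both sides of 0. A gene on more than 1 list is drawn on each.

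Of 20 modulators of Smad signalling, 2 were higher and 1 was lower. Ski, a corepressor that binds Smads in the nucleus, averaged 134 ± 13.3 FPKM in cKO and 73.0 ± 4.73 FPKM in controls (adjusted p = 0.00797). Lemd3, a protein of the inner nuclear membrane that restrains Smads, averaged 16.7 ± 1.72 FPKM in cKO and 11.9 ± 0.487 FPKM in controls (adjusted p = 0.0276). Usp15, a deubiquitinase of receptor Smads, averaged 15.9 ± 0.535 FPKM in cKO and 19.7 ± 0.266 FPKM in controls (adjusted p = 0.0242).

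Among 13 tested bHLH and Ets partners of Id proteins, 3 were higher and 1 was lower. The E protein Tcf3, a direct partner of Id proteins, averaged 53.1 ± 5.61 FPKM in cKO and 39.3 ± 1.84 FPKM in controls (adjusted p = 0.0356, and 0.204 with GC correction). Twist1, which restrains osteoblast differentiation, averaged 50.2 ± 9.35 FPKM in cKO and 25.5 ± 1.88 FPKM in controls (adjusted p = 0.0148). Hand2 was low, with 1.09 ± 0.320 FPKM in cKO and 0.312 ± 0.158 FPKM in controls (adjusted p = 0.0428, and 0.171 with GC correction). Heyl, a Notch target, averaged 2.80 ± 0.691 FPKM in cKO and 5.21 ± 0.515 FPKM in controls (adjusted p = 0.0313).

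Of 14 further targets of BMP signalling, 2 were higher and 1 was lower. The homeobox gene Msx1 averaged 9.53 ± 1.69 FPKM in cKO and 4.75 ± 0.537 FPKM in controls (adjusted p = 0.0160). Atoh8 averaged 38.8 ± 1.19 FPKM in cKO and 23.8 ± 2.64 FPKM in controls (adjusted p = 0.0115, and 0.0814 with GC correction). Tnfrsf11b, which encodes the osteoclast inhibitor osteoprotegerin, averaged 35.0 ± 4.75 FPKM in cKO and 52.0 ± 6.63 FPKM in controls (adjusted p = 0.0481, and 0.0658 with GC correction). Of 15 tested targets of TGF-beta apart from Smad7, 0 were higher and 2 were lower, with a median log2 fold change of -0.22. Among the lower genes, Adam12, a metalloprotease gene, averaged 4.85 ± 0.137 FPKM in cKO and 6.78 ± 0.427 FPKM in controls (adjusted p = 0.0181).

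Over the 6 libraries, the protein-coding genes with a pattern most like Id4 included Sdhd, Cep131, Rgl3 and Tns3, with Pearson r between 0.991 and 0.995 on log2(FPKM + 1) among 11749 genes compared. Both groups enter these correlations, so a gene that differs between them in the same order ranks high. Tns3, which encodes a focal adhesion protein, had 79.4, 71.4 and 80.7 FPKM in cKO, against 54.3, 58.6 and 58.0 FPKM in controls.

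Markers of other cell types were read beside the members. Stroma and osteoblast markers summed to between 3527 and 4888 FPKM in cKO and between 4351 and 4840 FPKM in controls, with 1 of 8 lower (Prrx1) and 0 higher. The libraries also held macrophage transcripts. The 5 macrophage markers summed to between 1743 and 2447 FPKM in cKO and between 1605 and 1726 FPKM in controls. Limma called 0 of the 5, with 1 at an unadjusted p under 0.05, and voom called 0 of the 4 it tested. With library weights 1 was higher. Endothelial markers summed to between 15.0 and 17.7 FPKM in cKO and between 20.5 and 26.6 FPKM in controls. Of these 6, limma called 1 lower (Emcn), with 4 at an unadjusted p under 0.05. Voom called 4 lower, and so did limma with library weights. Smooth muscle markers summed to between 4146 and 4753 FPKM in cKO and between 4690 and 5415 FPKM in controls, and limma called 0 of 4. Chondrocyte markers summed to between 268 and 409 FPKM in cKO and between 187 and 252 FPKM in controls, and limma called 0 of the 3 tested. Adipocyte markers summed to between 5.78 and 7.38 FPKM in cKO and between 2.61 and 4.42 FPKM in controls, and Adipoq, the adiponectin gene, was higher in cKO. Of the 3 granulocyte markers only S100a8 could be tested, as the other 2, Elane and Mpo, were under the filter. S100a8 averaged 35.8 ± 19.2 FPKM in cKO and 5.48 ± 3.97 FPKM in controls (SD, n = 3 each, limma adjusted p = 0.0574). Lymphocyte markers summed to at most 0.633 FPKM in cKO and 0.297 FPKM in controls, and erythroid markers were not analysed here. The part of these cell types in the values of Id4, Smad6, Smad7 and Nog was not tested.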

How the data were processed

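Poly-T purified RNA of 6 cultures (input 3 µg each) was made into NEBNext Ultra libraries, per the labels' protocols. The authors deposited FPKM, 1 column a library, and HTSeq 0.6.0 and DESeq2 1.10.1 are named without a role in the submitters' processing notes. Aligner, build and strand setting: not given in the sources used here. Groups came from the genotype labels and are biological replicates per the series' design text.

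From these FPKM values, log2(FPKM + 1) was tested with limma 3.58.1 in R 4.3.3 (moderated test with intensity trend, 2-sided, no covariate) over 13326 genes that averaged at least 0.5 FPKM. P values were adjusted by Benjamini-Hochberg over all of them, with a threshold of 0.05. Whole reads, used for depth and for voom, came back for 99.83% of genes above 0 (tolerance 1e-06). The procedure was tested on simulated data. Symbols, coordinates and GC content came from GENCODE vM21 (23510 identifiers had a symbol), promoters from RefSeq. The length behind the FPKM equalled the exon union for 7 of the 10 members and 77.8% of genes, within a relative tolerance of 1e-06. Id4 was among the exceptions, with 3320 bases behind its FPKM against 3849 in the exon union. Tables and plots were made with Python 3.11.15, numpy 2.4.6, pandas 2.3.3 and matplotlib 3.10.9.

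The members and lists were chosen with earlier results of these data known. All members are named, and of each list the genes past the threshold (up to 6), or the 2 with the smallest p where none passed, and the 5 genes most like Id4. By this rule 3 further genes qualified and are not reported here. The 19 alternatives were other pseudocounts, filters, scalings and variance priors, library weights, a replicate block, voom, GC correction (loess, span 0.5) without and with that block, and leaving out each library.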

Additional observations from a re-analysis of the deposited data

How the results depend on the processing

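Id4 was higher in cKO in all 19 alternatives, and its adjusted p exceeded 0.05 only with GC correction and the replicate block together (log2 difference 1.60, limma adjusted p = 0.0559). With the replicate block alone 1 member was called higher, the log2 difference being 0.78 for Smad6 (limma adjusted p = 0.0806) and 0.43 for Smad7 (0.0592), and with GC correction added 0 members were (0.51 and 0.28). GC correction alone gave 0.51 for Smad6 (0.0826) and 0.28 for Smad7 (0.0341). Correlations of the deviations of same-numbered libraries were -0.039, -0.054 and 0.035. With 3 libraries a group, these values cannot show whether same-numbered cultures were paired. Library weights gave 1 member lower (Smad9, -0.30) and Nog higher (1.63), as did voom (Nog, 1.70). Signs of members that did not pass turned for Id1 (-0.020 with quantile normalization, -0.073 with GC correction, without and with the block), Id3 (-0.051 with GC correction, without and with the block), Id2 (-0.049 with library weights) and Bambi (-0.019 with quantile normalization, -0.028 with library weights). With 1 library left out, the members called higher numbered 1 to 4, and the log2 difference ran between 0.71 and 0.89 for Smad6, 0.40 and 0.46 for Smad7, 1.09 and 2.05 for Nog, -0.042 and 0.059 for Id1, -0.11 and 0.24 for Id2, -0.26 and 0.022 for Grem1, and -0.063 and 0.086 for Bambi. Of the 93 pathway genes, where 11 were higher and 8 lower, library weights gave 19 higher and 15 lower, the block 2 and 0, the block with GC correction 0 and 0, no filter 3 lower, and leaving out a library 0 to 15 higher and 0 to 8 lower, with 0 and 0 without control 4. Over all tested genes, where 672 were higher and 342 lower, the counts were 1765 and 1378 with library weights, 42 and 22 with the block, 1 and 2 with the block and GC correction, 327 and 184 with no filter, 349 and 399 with GC correction, 609 and 560 with quantile normalization, 943 and 531 with voom, and 45 to 626 and 26 to 374 with a library left out. The lowest of these came without control 4. The cause of these shifts was not tested. With 3 libraries a group, no exact permutation p can fall below 0.1.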

Other observations

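Sp7 and Alpl had the same order of control libraries as Nog and Bmp2, with control 3 highest and control 2 lowest. They were picked from 8 stroma and osteoblast markers after their values were seen. Sp7, a transcription factor needed for osteoblasts, had 57.8, 45.4 and 69.2 FPKM in cKO 2, 3 and 4, against 28.8, 77.2 and 40.4 FPKM in controls 2, 3 and 4. Alpl, the alkaline phosphatase of mineralizing cells, had 168, 138 and 236 FPKM in cKO, against 90.0, 196 and 101 FPKM in controls. Not all stroma and osteoblast markers had this order, as Prrx1 was lowest in control 3 among controls. Its log2 difference was -0.35 with all libraries, -0.40 without control 3, -0.32 without control 2 and -0.32 without control 4. The remaining markers of that list are not shown for this order. Of its 8 markers limma called 0 higher and 1 lower in cKO, with a median log2 fold change of 0.01. The picked genes therefore do not stand for the list. Among the cKO libraries Id4, Nog, Bmp2, Sp7 and Alpl were all highest in cKO 4 and lowest in cKO 3, and so were Smad6 and Smad7. Among the controls Id4 and Smad7 were highest in control 4, and Smad6 was highest in control 3 and lowest in control 2. Apart from the log2 differences of Prrx1 and the calls and median of the marker list, these are values of single libraries, with no test.

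Junb, an immediate early gene picked after its values were seen, had 256 to 293 FPKM in cKO. It had 349 and 345 FPKM in controls 2 and 4 and 77.2 FPKM in control 3.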
